A study of Rattus norvegicus with 9 samples.

Results

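Egr1 is a zinc-finger transcription factor that neurons make quickly after synaptic activity, and the regions described here are those in which its ChIP-seq signal was called different between rat groups and which began near the start of a gene. A region was included when it lay on chromosomes 1 to 20 and when its start was at most 10 kb from the start of the nearest annotated gene, in either direction and whether or not it lay inside the gene. Of 5690 regions in the 3 deposited tables, 640 met this rule. They comprised 263 regions of proestrus versus males, 248 of proestrus versus diestrus, and 129 of diestrus versus males, and the other autosomal regions of these tables numbered 1824, 1406, and 505.

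The animals were 8-week-old Sprague-Dawley rats, and the tissue was the medial prefrontal cortex (mPFC). The paper describes tissue punches for its RNA samples, which came from a separate batch of animals. The groups were females in proestrus (n = 2), when ovarian estrogen is high, females in diestrus (n = 4), when it is low, and males (n = 3). Proestrus females were killed in the early afternoon, with progesterone also rising, and diestrus females early on their first diestrus day. Stage and time of collection thus cannot be fully told apart. Females were staged by daily vaginal smears, the labels give no drug or transgene for any group, and all chromatin was precipitated with 4 μg of the same Egr1 antibody. Each table lists the normalized reads of every library in a region, but not which animal a value came from. The tables hold called regions only, so neither a cell type nor the tissue label could be checked against marker signal, and a difference in Egr1 binding per cell cannot be told apart from a difference in the cells sampled.

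Egr1 binds G- and C-rich DNA through 3 zinc fingers, usually near promoters and in active enhancers, and it changes the transcription of genes used in synaptic plasticity. A region close to a gene start can cover a promoter, a first intron, or the end of a neighbouring short gene, and the nearest gene is not always the gene that a site controls. Estrogen is known to change dendritic spines and synapses in the cortex and hippocampus over the estrous cycle.

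The files give gene identifiers without symbols. Symbols could be paired with 25 of the 598 nearest genes, and the RefSeq promoter table (GRCr8) held 24 of these. The 250 bases before the gene start were searched on both strands for the Egr1 motif forms GCGTGGGCG and GCGGGGGCG. Of the 24 upstream sequences, 1 held a match (4.17%), when compared to 955 of all 33469 (2.85%). The median G+C content was 62.2% in the 24 and 51.2% over all. The match lay upstream of Slc46a3, on the strand of the gene, with its first base at position -98. Shown are Slc46a3, which was listed in both comparisons with males, Hat1 and Arpc1b, whose regions lay closest to a gene start among the named genes higher and lower in proestrus than in males, Grm6, a glutamate receptor gene, and N6amt1, the named gene that was higher in diestrus than in males. Each sequence runs 5′ to 3′ up to the base before the start, with the motif in capitals.
Slc46a3, chr12:12176584-12176833, plus strand: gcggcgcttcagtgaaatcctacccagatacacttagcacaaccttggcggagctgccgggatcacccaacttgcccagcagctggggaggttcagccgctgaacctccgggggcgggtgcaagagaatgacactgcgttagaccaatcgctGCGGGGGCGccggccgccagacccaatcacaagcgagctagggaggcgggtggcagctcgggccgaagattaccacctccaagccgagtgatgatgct
Hat1, chr3:76624780-76625029, plus strand: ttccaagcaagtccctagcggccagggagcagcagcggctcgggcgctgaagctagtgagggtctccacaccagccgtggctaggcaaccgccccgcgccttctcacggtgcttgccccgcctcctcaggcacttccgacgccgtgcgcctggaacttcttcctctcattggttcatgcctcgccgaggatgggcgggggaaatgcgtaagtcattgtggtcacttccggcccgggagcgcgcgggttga
Arpc1b, chr12:14609489-14609738, minus strand: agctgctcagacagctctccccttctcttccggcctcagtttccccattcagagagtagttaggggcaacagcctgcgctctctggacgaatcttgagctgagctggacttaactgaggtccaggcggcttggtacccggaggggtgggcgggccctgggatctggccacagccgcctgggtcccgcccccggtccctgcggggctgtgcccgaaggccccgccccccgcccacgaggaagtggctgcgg
Grm6, chr10:35668753-35669002, plus strand: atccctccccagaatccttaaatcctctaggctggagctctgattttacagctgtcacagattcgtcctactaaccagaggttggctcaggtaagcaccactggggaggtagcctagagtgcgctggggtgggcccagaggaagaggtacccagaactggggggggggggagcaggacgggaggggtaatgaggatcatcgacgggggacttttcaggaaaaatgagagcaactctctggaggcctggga
N6amt1, chr11:40070767-40071016, plus strand: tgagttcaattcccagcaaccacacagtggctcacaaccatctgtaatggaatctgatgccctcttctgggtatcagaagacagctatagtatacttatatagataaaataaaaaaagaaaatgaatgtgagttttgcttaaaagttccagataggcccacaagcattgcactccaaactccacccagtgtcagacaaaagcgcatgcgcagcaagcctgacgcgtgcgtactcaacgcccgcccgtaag
These windows belong to GRCr8, whereas all regions below are given in Rnor_5.0, the build of the files, whose sequence was not used here. The regions of these 5 genes lay between 448 and 8261 bp from the start that the files give, so the windows describe the promoters and not the regions. A match in the letters is not a measured site, and its absence says nothing about binding.

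The values rest on few reads. Nearly all of the 31606 library values (31602) lay within 0.1 of a whole number of reads, which allowed the reads to be counted. Regions near gene starts held a median of 18 reads, summed over 5 libraries, when proestrus was compared to males. The median was 17 reads over 6 libraries in proestrus versus diestrus, and 28 reads over 7 libraries in diestrus versus males. In proestrus versus males, 157 of the 213 regions higher in proestrus held fewer than 20 reads, when compared to none of the 50 that were lower. Over all listed autosomal regions of this comparison, 1488 of 1885 higher and 0 of 202 lower regions did so. The value of 1 read differed by library, from 0.634 to 1.65 normalized reads in proestrus versus males, so the shallower proestrus library carried 1047 of the reads in these regions and the deeper 2109. Each region was listed because its groups differed, so ratios and non-overlapping values below describe the listed regions and were not tested.

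The first question was whether regions near gene starts changed in the same direction as regions farther away. In proestrus versus males, 213 of 263 regions near starts were higher in proestrus (81.0%, Wilson 95% interval 75.8 to 85.3) and 50 were lower, whereas 1672 of 1824 farther regions were higher (91.7%, 90.3 to 92.8). Over all listed autosomal regions of this comparison, 90.3% were higher in proestrus. The share near starts was 10.7 percentage points smaller (difference of -10.7, adjusted p = 1.62e-06 by Fisher's exact test, two-sided, with Benjamini-Hochberg adjustment over the comparisons). In proestrus versus diestrus, 239 of 248 regions near starts were higher in proestrus (96.4%, 93.2 to 98.1), when compared to 1386 of 1406 farther regions (98.6%, 97.8 to 99.1) and to 98.2% over all. The difference was -2.21 points (adjusted p = 0.0299, same exact test), which rests on 9 lower regions. In diestrus versus males, 36 of 129 regions near starts were higher in diestrus (27.9%, 20.9 to 36.2) and 93 were lower, when compared to 204 of 505 farther regions that were higher (40.4%, 36.2 to 44.7) and to 37.9% over all. The difference was -12.5 points (adjusted p = 0.0162, same exact test). The 3 comparisons share libraries in pairs, so their differences are not independent of each other. Regions of the same libraries are not independent either, so these p-values describe the listed regions and not animals.

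A minimum of reads removed higher regions only, since every region lower in proestrus than in males held at least 22 reads. Among regions of proestrus versus males with at least 20 reads, 56 near starts were higher in proestrus and 50 lower, when compared to 341 and 152 farther away, a balance that the minimum itself sets.

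The contrast depended on what counted as far. When only regions between 10 and 100 kb from a start served for comparison, the difference was -6.64 points in proestrus versus males (adjusted p = 0.0243, exact test), -1.62 in proestrus versus diestrus (adjusted p = 0.232, exact test), and -3.20 in diestrus versus males (adjusted p = 0.569, exact test). Counting 1 region per nearest gene gave -9.27 points in proestrus versus males (adjusted p = 1.25e-04), -1.85 in proestrus versus diestrus (adjusted p = 0.0562), and -11.6 in diestrus versus males (adjusted p = 0.0312, same exact tests). The call was also lost in proestrus versus diestrus with a limit of 5 kb (-1.48 points, adjusted p = 0.264, exact test) or 1 kb (-5.72, adjusted p = 0.1002, exact test). At least 20 reads gave -5.96 there (adjusted p = 0.0704, exact test), a minimum that again removed higher regions only. In diestrus versus males it was lost with a limit of 1 kb (-13.7, adjusted p = 0.424) or with chromosome X added (-9.07, adjusted p = 0.0570, same exact tests). With the limit of 1 kb, the differences were larger than in the main test, but rest on 28 and 15 regions near starts. With regions across the gene start alone the call was lost in all 3 (-25.0, -12.9, and -20.4 points, with at most 7 regions each). In proestrus versus males the call held with chromosome X added (-5.78 points, adjusted p = 6.41e-05) and with a limit of 1 kb (-27.7, adjusted p = 4.18e-04, same exact tests). The size of that difference thus depended on these choices.

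**Figure D1:**
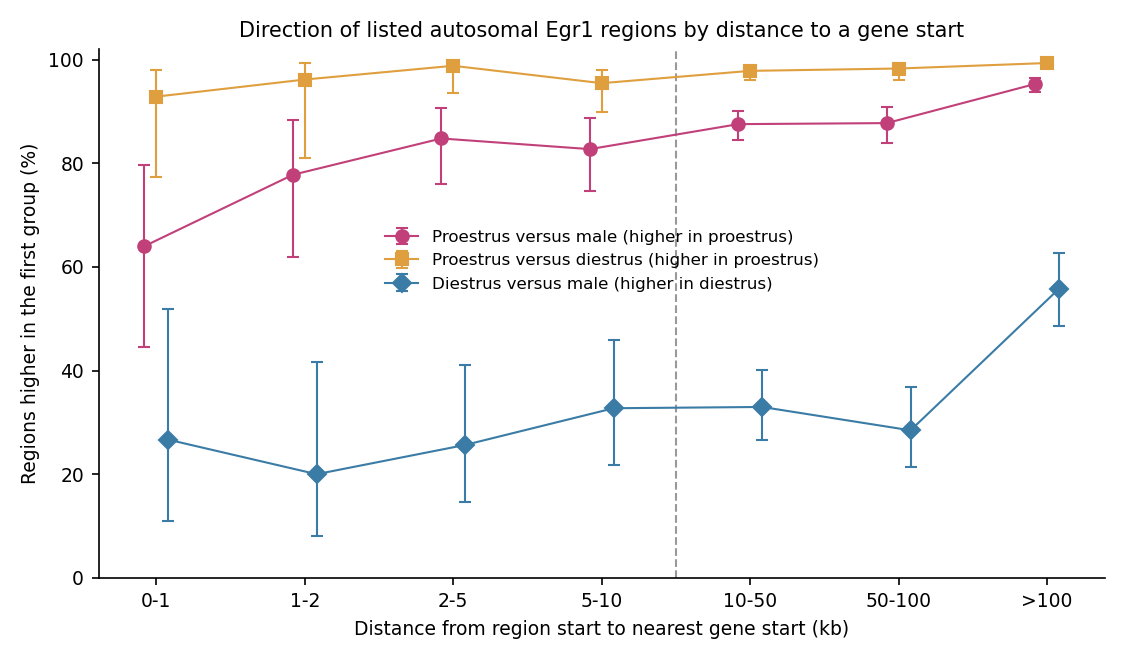
Share of listed autosomal regions that were higher in the first group (y axis, %) by distance from region start to the nearest gene start (x axis, kb), for the 3 comparisons, with Wilson 95% intervals and a dashed line at the 10 kb limit. In proestrus versus males the share is 64.0% within 1 kb and 95.3% beyond 100 kb, and in diestrus versus males it is 55.8% beyond 100 kb and between 20% and 33.0% in every nearer class.

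By distance class, the regions of proestrus versus males were higher in proestrus in 16 of 25 cases within 1 kb of a start (64.0%, Wilson interval 44.5 to 79.8), in 28 of 36 between 1 and 2 kb, in 78 of 92 between 2 and 5 kb, and in 91 of 110 between 5 and 10 kb (82.7%). Outside the limit, it was 450 of 514 between 10 and 50 kb (87.5%, 84.4 to 90.1) and 308 of 351 between 50 and 100 kb (87.7%, 83.9 to 90.8). The interval of the 5 to 10 kb class (74.6 to 88.7) overlaps both of these. Beyond 100 kb, the share was 914 of 959 (95.3%, 93.8 to 96.5), so part of the contrast lay at 100 kb. In diestrus versus males, 4 of 15 regions within 1 kb were higher in diestrus, 4 of 20 between 1 and 2 kb, 10 of 39 between 2 and 5 kb, and 18 of 55 between 5 and 10 kb. The intervals of these classes overlap, and the step in this comparison lay at 100 kb, beyond which 106 of 190 regions were higher in diestrus (55.8%, 48.7 to 62.7). In proestrus versus diestrus, every class was higher in proestrus in at least 92.9% of regions.

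Few of these regions covered a gene start. In proestrus versus males, 111 regions lay upstream of the gene, 6 across its start, 101 inside, 3 across its end, and 42 beyond the end of a gene short enough to end within the limit. The numbers were 118, 7, 90, 1, and 32 in proestrus versus diestrus, and 57, 5, 46, 3, and 18 in diestrus versus males. The nearest genes near starts had a median annotated length of 10614 bp in proestrus versus males, 14038 bp in proestrus versus diestrus, and 7662 bp in diestrus versus males, and those of the farther regions 7079, 17946, and 19525 bp. Upstream regions of proestrus versus males were higher in proestrus in 90 of 111 cases and inside regions in 80 of 101. The median region was 500 bp wide in all 3 comparisons.

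The regions next to the limit of 10 kb had the following values. In proestrus versus males, the 3 outermost regions inside it lay 9804 to 9974 bp from a start, with log2 ratios of 1.99 to 3.34. The 3 next regions outside lay at 10002 to 10167 bp, with log2 ratios of 3.09 to 4.05. In proestrus versus diestrus, the log2 ratios were 2.62 to 3.05 just inside and 2.20 to 3.25 just outside. In diestrus versus males, both sides held 2 lower regions, with log2 ratios of -3.35 and -3.14 inside and -3.28 and -2.87 outside, and 1 higher region, with 2.57 inside and 2.52 outside.

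**Figure D2:**
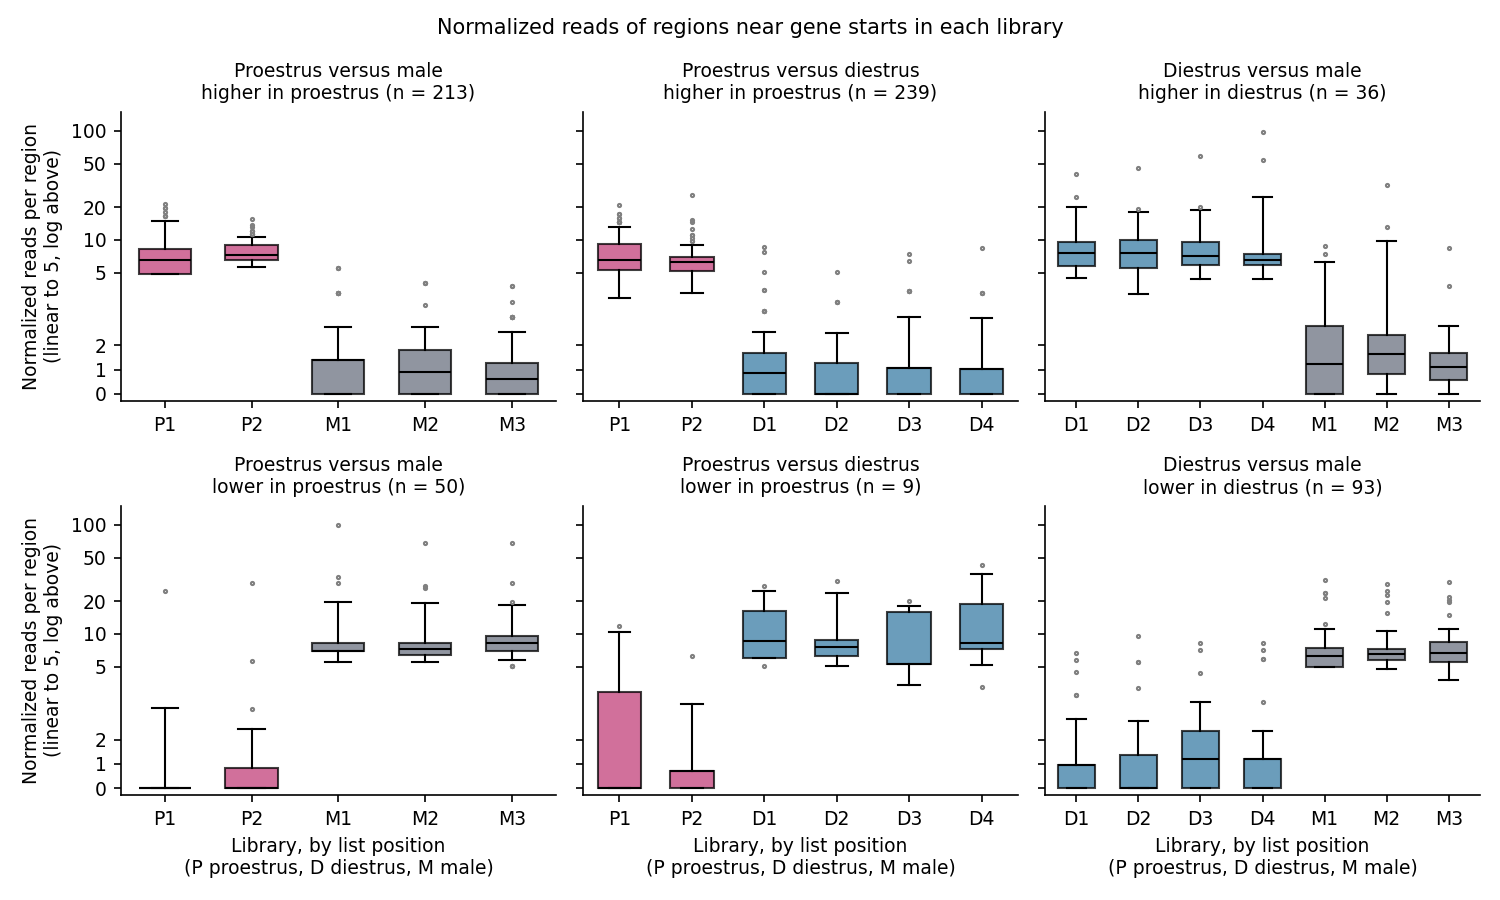
Normalized reads per region (y axis, linear up to 5 and logarithmic above) in each library (x axis, by its position in the list, with P for proestrus, D for diestrus, and M for male) for regions higher (top) or lower (bottom) in the first group. Boxes give quartiles with the median, whiskers the 5th and 95th percentiles, and points the regions beyond them. In the regions higher in proestrus than in males, the proestrus libraries have medians of 6.60 and 7.30 and the male libraries medians of 1.39, 0.92, and 0.63.

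Regions higher in proestrus than in males had a median group mean of 7.35 normalized reads in proestrus and 1.07 in males, and a median log2 ratio of 2.81. The same median over all listed autosomal regions higher in proestrus was 2.84. All 263 regions near starts had non-overlapping libraries, as did 100% of all listed autosomal regions in this comparison, so the separation is a property of the list. Individual male libraries held no read in 83, 65, and 63 of the 213 higher regions. In 7 of them (and in 68 of all 1885 listed autosomal regions higher in proestrus) no male library held a read, and the ratio is then a lower bound set by 3 reads over the group.

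Hat1 encodes the acetyltransferase that modifies newly made histone H4, and its region began 448 bp inside the gene (chr3:64511351-64511850). The proestrus libraries held 8.25 and 5.68 normalized reads, and the male libraries 0, 0.92, and 0.63. Both proestrus libraries lay above all males, with group means of 6.96 ± 1.82 (SD, n = 2) and 0.52 ± 0.47 (n = 3). The log2 ratio was 3.74, but the males held 2 reads in all, so that the 95% counting interval ran from 1.30 to 6.67. The background was 3.01 in proestrus and 0.722 in males, and thus also higher in proestrus. The counting interval, here and below, covers counting error only.

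Among signalling and regulatory genes, Ets2 encodes a transcription factor of the ETS family. Its region lay 2702 bp inside the gene (chr11:39609701-39610200), with 11.54 and 7.30 normalized reads in proestrus and 4.17, 0, and 1.27 in males (log2 ratio 2.38). Il1rap encodes the accessory chain of the interleukin-1 receptor, and a region 2440 bp upstream of it (chr11:83121451-83121950) held 8.25 and 10.55 in proestrus and 0, 1.83, and 1.90 in males (log2 ratio 2.91). In both regions one male library held no read. In both, the background was lower in proestrus than in males, at 2.13 and 3.85 for Ets2 and 1.68 and 3.47 for Il1rap.

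Other named genes higher in proestrus have roles in transport, folding, and RNA processing. Kifap3 encodes the cargo adaptor of a kinesin motor, and its region 4107 bp inside the gene held 8.25 and 6.49 normalized reads in proestrus and 1.39, 1.83, and 0 in males (log2 ratio 2.78, counting interval 1.13 to 5.45, with 3 male reads). Dnajc1, an endoplasmic reticulum co-chaperone gene, held 8.25 and 6.49 in proestrus and 0, 1.83, and 1.27 in males. Elac1, which encodes a nuclease that trims tRNA precursors, held 8.25 and 9.74 in proestrus and 1.39, 1.83, and 1.27 in males. These 3 regions lay inside their genes, and their log2 ratios were between 2.58 and 2.84.

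Grifin encodes a galectin-related protein of the lens. Its region began 2040 bp from the start, just beyond the end of this 1983 bp gene, with 16.49 and 5.68 normalized reads in proestrus and 4.17, 2.75, and 1.27 in males. Most of the proestrus signal came from the shallower library, and the log2 ratio was 2.02. Maged2, a member of the MAGE gene family, was the only named gene with 2 regions, at 2095 and 3995 bp inside the gene. The first held 14.84 and 8.92 in proestrus and 1.39, 0, and 3.17 in males, and the second held 11.54 and 9.74 in proestrus and 2.78, 2.75, and 0 in males. The files place this identifier on chromosome 5, whereas RefSeq places Maged2 on chromosome X in GRCr8, so the symbol of this pair is uncertain.

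The 3 regions with the largest excess in proestrus over males lay at chr16:11662501-11663300, chr1:130683401-130684100, and chr14:21855751-21856550. The first covered a gene start and held 21.44 and 8.11 normalized reads in proestrus and 1.39, 2.75, and 1.90 in males, with a background of 5.80 in proestrus and 2.96 in males. The second held 16.49 and 10.55 in proestrus and 0, 2.75, and 4.44 in males. The third held 18.14 and 8.11 in proestrus and 0, 4.58, and 0 in males. In each, the shallower proestrus library was the higher one.

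Both proestrus libraries were empty in 30 of the 50 regions lower in proestrus than in males, and in 124 of all 202 listed autosomal regions in this direction. The male group mean had a median of 7.54 normalized reads. With empty groups set to their bound of 3 reads over both libraries, the median log2 ratio was -2.15, as compared to -2.17 over all listed autosomal regions lower in proestrus. Among the 20 regions with proestrus reads the median was -3.91, as compared to -3.47 over all listed autosomal regions lower in proestrus that held proestrus reads. The bound reflects the depth of the proestrus libraries, since leaving out the deeper one moved the median to -0.61.

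**Figure D3:**
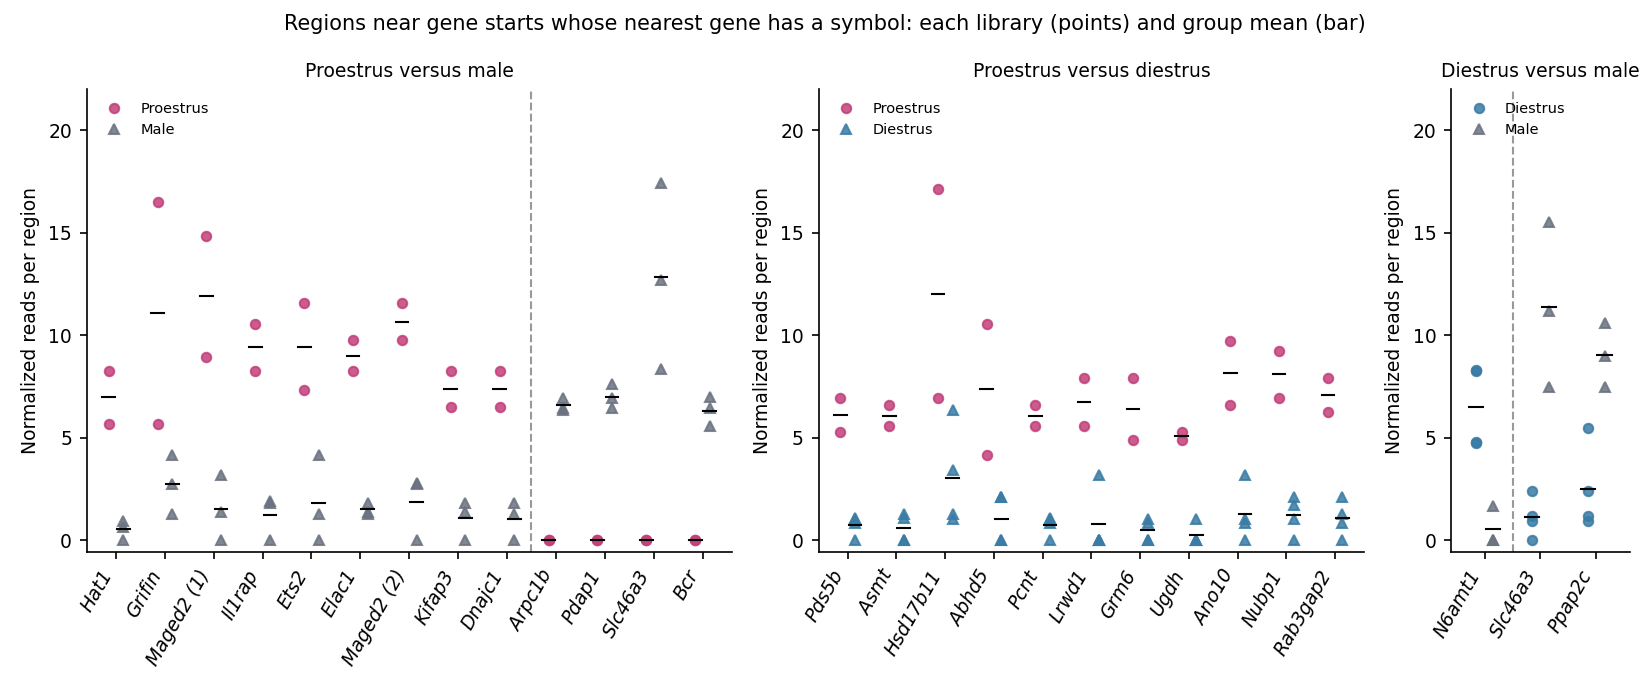
Normalized reads per region (y axis) in each library (points) with group means (bars) for the regions whose nearest gene has a symbol (x axis), in the 3 comparisons, with regions higher in the first group to the left of the dashed line. Maged2 appears with both of its regions. Arpc1b, Pdap1, Slc46a3, and Bcr have 0 in both proestrus libraries, and every male library of these genes holds between 5.56 and 17.42.

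All 4 named genes in this direction had no proestrus read. Slc46a3 encodes a lysosomal transporter, and its region 3688 bp inside the gene (chr12:10845901-10846750) held 8.34, 17.42, and 12.68 normalized reads in males. The male mean of 12.81 ± 4.54 (SD, n = 3) was 7.85-fold above the proestrus floor of 3 reads. The counting interval, which also holds the error of the male reads, reached a log2 ratio of -2.67. The background of the males in this region was 13.2, so the reads did not exceed it. Pdap1 and Arpc1b are neighbours on chromosome 12. Arpc1b encodes a subunit of the Arp2/3 complex, which nucleates branched actin, and its region 1550 bp upstream (chr12:13336501-13337000) held 6.95, 6.42, and 6.34 in males. Their mean was 4.03-fold above the proestrus floor (counting interval up to a log2 ratio of -1.57). The Pdap1 region (chr12:13313451-13313950) held 6.95, 6.42, and 7.61 in males, with a mean 4.28-fold above the proestrus floor (counting interval up to -1.71). Bcr encodes a protein that activates GTP hydrolysis by Rac, and its region 8982 bp inside the gene (chr20:16655101-16655600) held 5.56, 6.42, and 6.97 in males. Their mean was 3.87-fold above the proestrus floor (counting interval up to -1.57). The male background was 3.37 for Arpc1b, 3.99 for Pdap1, and 5.06 for Bcr.

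Proestrus versus diestrus addresses the estrous cycle within females. Higher regions had a median group mean of 6.46 normalized reads in proestrus and 0.79 in diestrus, with a median log2 ratio of 2.94, and the same median over all listed autosomal regions higher in proestrus was 2.95. The libraries did not overlap in 247 of 248 regions near starts (99.6%), when compared to 99.7% of all listed autosomal regions. The exception lay 411 bp upstream of a gene on chromosome 5 (chr5:105160701-105161200), with 13.16 and 4.17 in proestrus and 0, 1.26, 4.23, and 1.04 in diestrus. The diestrus libraries were empty in 93, 136, 103, and 106 of the 239 higher regions.

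All 11 named genes of this comparison were higher in proestrus, as were 98.2% of all its listed autosomal regions. Grm6, a metabotropic glutamate receptor gene best known from bipolar cells of the retina, had a region 8261 bp inside the gene (chr10:36125201-36125800). It held 7.89 and 4.87 normalized reads in proestrus and 0.85, 0, 0, and 1.04 in diestrus. The means were 6.38 ± 2.14 (SD, n = 2) and 0.47 ± 0.55 (n = 4), and the log2 ratio was 3.76, with a counting interval of 1.37 to 6.71 because diestrus held 2 reads.

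Among the named genes of this comparison, Pds5b and Asmt had the regions nearest to a start. Pds5b encodes a regulator of cohesin, and the region 1115 bp upstream of it (chr12:686401-686900) held 5.26 and 6.95 normalized reads in proestrus and 0.85, 0, 1.06, and 1.04 in diestrus (log2 ratio 3.05, counting interval 1.20 to 5.48). Asmt encodes the last enzyme of melatonin synthesis, and the region 1447 bp upstream of it (chr12:20512651-20513150) held 6.58 and 5.56 in proestrus and 0, 1.26, 1.06, and 0 in diestrus (log2 ratio 3.39, interval 1.37 to 6.71). The background of the Asmt region was 3.32 in proestrus and 1.57 in diestrus, over 2-fold different in the direction of the reads, and that of the Pds5b region was 1.23 and 2.85. The groups did not overlap in either region, and no diestrus library held more than 1 read in them.

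Several of the named genes encode metabolic enzymes. Hsd17b11 belongs to the 17-beta-hydroxysteroid dehydrogenases, and its region 1628 bp inside the gene (chr14:7065951-7066450) held 17.10 and 6.95 normalized reads in proestrus and 3.41, 1.26, 6.35, and 1.04 in diestrus. The deeper proestrus library was just above the highest diestrus library there, and the log2 ratio of 1.99 was the smallest among the named genes of this comparison. The background there was 4.56 in proestrus and 2.11 in diestrus, again over 2-fold higher in proestrus. Ugdh, which encodes UDP-glucose dehydrogenase, held 5.26 and 4.87 in proestrus and 0, 0, 0, and 1.04 in diestrus, where 1 read left a counting interval of 1.49 to 9.70 around the log2 ratio of 4.28. Abhd5, an activator of triglyceride breakdown, held 10.52 and 4.17 in proestrus and 0, 0, 2.12, and 2.08 in diestrus (log2 ratio 2.81). In Abhd5 and Hsd17b11 the shallower proestrus library was over 2 times as high as the deeper.

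The others included genes of the centrosome, vesicle traffic, and DNA replication. Pcnt, which encodes the centrosome scaffold pericentrin, held 6.58 and 5.56 normalized reads in proestrus and 0.85, 0, 1.06, and 1.04 in diestrus. Rab3gap2, a subunit of the Rab3 GTPase-activating complex, held 7.89 and 6.26 in proestrus and 0.85, 1.26, 2.12, and 0 in diestrus. Lrwd1, which encodes a partner of the origin recognition complex, held 7.89 and 5.56 in proestrus and 0, 0, 3.18, and 0 in diestrus, so that a single library held all 3 diestrus reads. Nubp1, for cytosolic iron-sulfur cluster assembly, held 9.21 and 6.95 in proestrus and 1.71, 0, 2.12, and 1.04 in diestrus, and Ano10, of the anoctamin family, held 6.58 and 9.73 in proestrus and 0.85, 0, 3.18, and 1.04 in diestrus. The log2 ratios of these 5 genes were between 2.68 and 3.09, with a counting interval of 1.07 to 5.38 for Pcnt and 1.20 to 5.48 for Lrwd1, which had 3 diestrus reads each.

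The largest excess over diestrus was found at chr17:46482551-46483350, which lay 7449 bp upstream of a gene and held 14.47 and 25.73 normalized reads in proestrus and 8.53, 0, 3.18, and 8.34 in diestrus, with a background of 10.2 in proestrus and 10.4 in diestrus. Next were chr17:55636651-55637200, with 21.05 and 14.60 in proestrus and 7.68, 1.26, 4.23, and 4.17 in diestrus, and chr3:178411701-178412250, with 17.10 and 9.04 in proestrus and 5.12, 3.78, 1.06, and 1.04 in diestrus. The groups did not overlap in these 3 regions, and their log2 ratios were between 2.00 and 2.25.

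The 9 regions lower in proestrus than in diestrus had a median log2 ratio of -2.25, as compared to -2.15 over all listed autosomal regions lower in proestrus. Proestrus was empty and set to its bound in 4 of the 9, and in 19 of all 29. Leaving out the deeper proestrus library moved the median of the 9 to -0.80, and adding 0.5 to both means moved it to -3.11. A region across a gene start on chromosome 2 (chr2:54088751-54089400) held no proestrus read, and 5.97, 8.82, 6.35, and 7.29 normalized reads in diestrus. In proestrus versus males, a region at nearly the same place (chr2:54088801-54089400) also lacked proestrus reads, with a male mean of 7.20. Both comparisons share the proestrus libraries.

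Diestrus versus males compares females at the low-estrogen stage with males, and here most regions near starts were lower in the females. Lower regions had a median group mean of 0.88 normalized reads in diestrus and 6.67 in males (median log2 ratio -2.95, and -2.97 over all listed autosomal regions lower in diestrus). The 36 higher regions had medians of 6.53 and 1.22 (median log2 ratio 2.51, and 2.71 over all listed autosomal regions higher in diestrus). No group was empty in any of the 129 regions, and the libraries did not overlap in any of them, as in 99.8% of all listed autosomal regions.

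N6amt1 encodes a methyltransferase that modifies a translation release factor, and its region 7377 bp inside the gene (chr11:30636951-30637450) held 4.77, 8.24, 8.28, and 4.73 normalized reads in diestrus and 0, 0, and 1.67 in males. All diestrus libraries lay above all males, with a log2 ratio of 3.54 and a counting interval of 1.28 to 5.40, since the males held 3 reads. Slc46a3 was lower at the same coordinates as in proestrus versus males, with 0.95, 0, 2.37, and 1.18 in diestrus and 7.47, 15.51, and 11.16 in males (means 1.13 ± 0.97, SD, n = 4, and 11.38 ± 4.02, n = 3, log2 ratio -3.33). Both comparisons share the males, and the background there was 1.66 in diestrus and 11.7 in males. Ppap2c, a lipid phosphate phosphatase gene, held 0.95, 5.49, 2.37, and 1.18 in diestrus and 7.47, 8.98, and 10.60 in males 6845 bp inside the gene (log2 ratio -1.85), with a background of 3.62 in diestrus and 4.34 in males.

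The regions with the most reads differed in background as well as in reads. One unnamed gene on chromosome 12 was the only gene with 3 regions near its start, and it had 3 in both comparisons with males. The region across its start (chr12:37859201-37859900) held 3.30 and 1.62 normalized reads in proestrus and 29.19, 19.26, and 18.39 in males (log2 ratio -3.18), with a background of 1.07 in proestrus and 15.0 in males. In diestrus versus males, the region at this start (chr12:37859051-37860250) held 6.68, 9.61, 2.37, and 5.91 in diestrus and 31.11, 24.50, and 21.75 in males (log2 ratio -2.07), with a background of 7.40 in diestrus and 16.1 in males. The other 2 regions upstream, in each comparison, had log2 ratios between -2.72 and -1.97, and male backgrounds between 15.2 and 21.7.

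The same held for the other largest deficits of proestrus to males. The region at chr17:91079251-91080200 held 24.74 and 29.21 normalized reads in proestrus and 100.07, 68.77, and 68.47 in males, the most of any region near a start, with a background of 21.4 in proestrus and 72.6 in males. The region at chr10:94099301-94100450 held 3.30 and 2.43 in proestrus and 33.36, 26.59, and 29.16 in males, with a background of 7.97 and 30.6.

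A locus on chromosome 1 was higher in diestrus than in either other group. In diestrus versus males, a region across a gene start (chr1:236162901-236163950) held 40.08, 45.32, 59.13, and 96.93 normalized reads in diestrus and 7.47, 31.85, and 8.37 in males (log2 ratio 1.93), with a background of 55.4 in diestrus and 19.6 in males. One male library stood apart from the other two, with 31.85. It was also the highest male library 7890 bp upstream of this start, with 7.35 against 2.49 and 0, and in the region at chr1:236177801-236178300, with 13.07 against 1.24 and 2.79. In proestrus versus diestrus, the region 610 bp inside the gene (chr1:236164301-236164800) held 10.52 and 3.48 in proestrus and 24.74, 30.24, 17.99, and 35.43 in diestrus, with a background of 16.7 and 26.6. Both comparisons share the diestrus libraries.

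**Figure D4:**
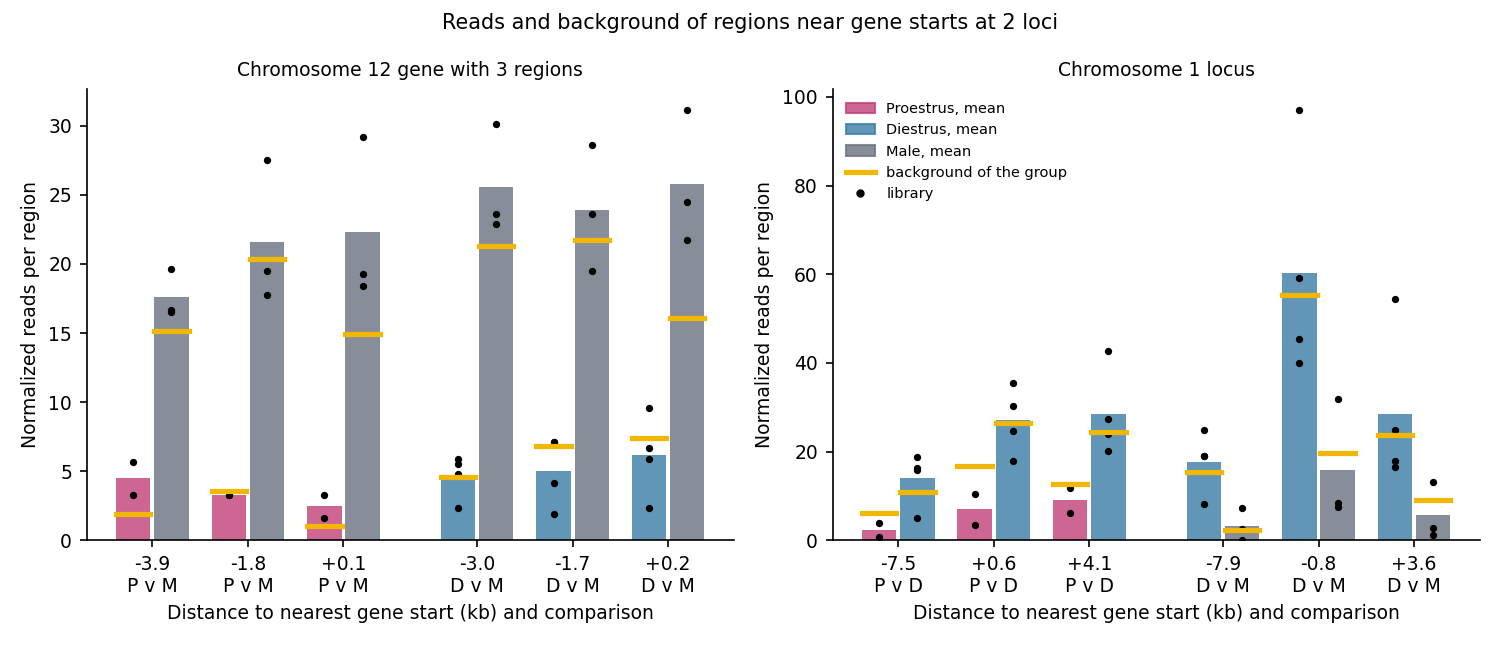
Group mean (bars), libraries (points), and background (yellow lines) in normalized reads per region (y axis) for regions around the chromosome 12 gene start (left) and the chromosome 1 locus (right), by distance to the nearest gene start in kb and by comparison, with P for proestrus, D for diestrus, and M for male. In the male bars at the left and the diestrus bars at the right, the background lies between 10.8 and 55.4 normalized reads and is higher than in the other group of the pair.

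The background, which is the group mean divided by the deposited enrichment, could be computed for both groups in 226 regions near starts of proestrus versus males, 228 of proestrus versus diestrus, and all 129 of diestrus versus males. Its median log2 ratio was -0.06, -0.08, and -0.27. It differed at least 2-fold in the same direction as the reads in 40 of 263 regions of proestrus versus males (18.4% over all listed autosomal regions), in 15 of 248 of proestrus versus diestrus (6.41% over all), and in 18 of 129 of diestrus versus males (11.7% over all). Among the 20 regions lower in proestrus than in males with a background in both groups, the median log2 ratio of the backgrounds was -0.70, and 9 passed the 2-fold mark. Over all listed autosomal regions lower in proestrus than in males, the median was -0.49, and 27 of 78 passed that mark. The part of the background in the read differences was not tested. When all regions of this kind were left out, near and far, the difference in direction was -9.34 points in proestrus versus males (adjusted p = 2.22e-04), -2.34 in proestrus versus diestrus (adjusted p = 0.0301), and -15.1 in diestrus versus males (adjusted p = 0.00463, same exact tests). An empty group has no background, so 30 of the 41 lower regions kept near starts in proestrus versus males could not be judged in this way.

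**Figure D5:**
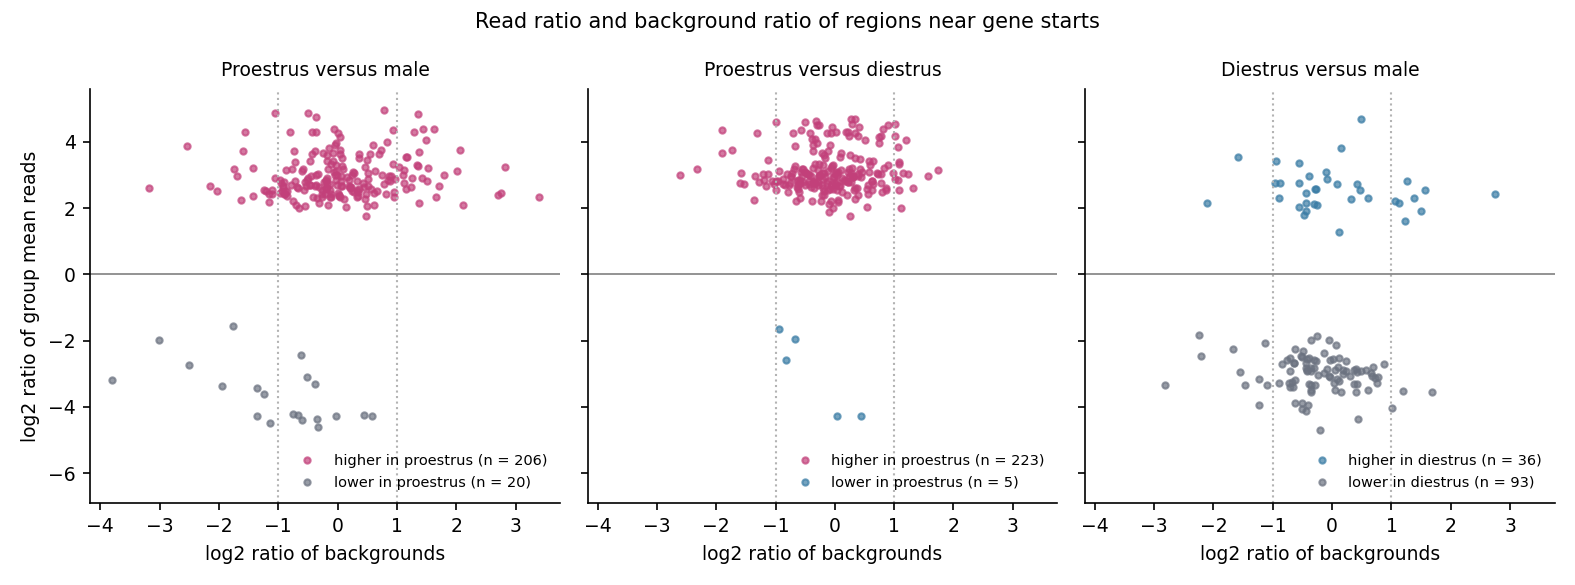
Log2 ratio of group mean reads (y axis) against log2 ratio of the backgrounds (x axis) for each region near a gene start with a background in both groups, in the 3 comparisons, with dotted lines at a 2-fold difference of backgrounds. Regions higher in the first group spread on both sides of 0 on the x axis, with median background ratios of -0.02, -0.08, and -0.18, and those lower in proestrus than in males have a median of -0.70.

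Of the fixed gene lists, only synaptic receptors had a member with a region near its start, namely Grm6. The lists were chosen with earlier results of these data known, so this match is not an independent result. Identifiers were known for 12 of the 32 synaptic receptor genes, 12 of 25 presynaptic and scaffold genes, 1 of 13 activity-regulated transcription factors, and 7 of 11 sex steroid signalling genes, so these lists could not be counted as groups. All 12 neuronal calcium, kinase, and potassium channel genes and all 9 interneuron and glial genes had an identifier, and none of them was the nearest gene of a region near a start. This count carries little information, since only 25 of the 1238 identifiers with a symbol had such a region. Of those 21 genes, Atp2a2, Fyn, Pdgfra, and Sst were nearest to a listed region farther than 10 kb from their start.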

How the data were processed

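Egr1 ChIP-seq libraries from the mPFC (2 rats in proestrus, 4 in diestrus, and 3 male rats) were compared in pairs by the authors. Per the labels and methods, reads were trimmed with Trimmomatic 0.32, mapped to Rnor_5.0 with Bowtie2 2.1.0, filtered by mapping quality, and freed of duplicates (SAMtools 0.1.19, Picard 1.84). Outlier libraries were removed, DiffReps was run on each pair of groups, and ChIPpeakAnno added the nearest gene. Per the methods, 3 sequencing pools held a library pair of each group and 1 pool held diestrus females alone, so at least 1 of the 4 diestrus libraries came from a pool without another group. Pools could not be matched to the listed values, and pool and group cannot be fully told apart in comparisons with diestrus. How DiffReps was set, how reads were normalized, and what served as background were details not given in the sources used here.

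Each group mean, as deposited, is a signal (coverage in normalized reads), the deposited enrichment is a ratio (fold over background), and the deposited lists hold the value of each library. The authors' fold changes, p-values, adjusted p-values, and window statistics were not used. Ratios were computed from the group means, and an empty group was set to the value of 3 reads over its libraries. Reads were recovered from the value of 1 read in each library, which was tested on simulated data. The deposited distance runs from the region start to the gene start, and was recomputed for all 3225, 1774, and 691 regions. Direction near and far from gene starts was compared by Fisher's exact test, two-sided, and p-values of the 3 comparisons were adjusted by the Benjamini-Hochberg method. Alternatives were other distance limits, distance from the region centre, the addition of chromosome X, merging, 1 region per gene, a read minimum, a pseudocount, and leaving out each library. Intervals are Wilson intervals for shares and Clopper-Pearson intervals on pooled reads for ratios, at 95%.

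The members, gene lists, and tests were chosen with earlier results of these data known. Regions named were those whose nearest gene has a symbol (up to 12 per comparison and direction), those of the gene lists, the 3 with the largest difference of means per direction, and genes with 3 or more regions. Lower regions of proestrus versus diestrus, the overlapping region, and the remarks on single libraries were chosen after their values were seen. Symbols came from 1238 pairs of identifiers and symbols in a supplementary table of the study, of which a shortened copy was used. Python 3.11.15, pandas 2.3.3, scipy 1.17.1, and matplotlib were used.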

Additional observations from a re-analysis of the deposited data

Results flagged for a closer look

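Of 26 named regions with values of all 4 diestrus libraries, 2 held a library far from the other 3 by Dixon's criterion. The usual chance rate of about 1 in 20 groups does not apply here, since 3 empty libraries beside 1 with reads always meet the criterion. In proestrus versus diestrus, the highest diestrus library in the Lrwd1 region held 3.18 normalized reads, and the other 3 held none. The highest diestrus library in the Ugdh region held 1.04, which is 1 read, and the other 3 held none.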

How the results depend on the processing

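Of 135 values recomputed under alternatives, none reversed, 11 lost the threshold, and 14 moved further than allowed. The other 110 kept their direction and their side of the threshold, or moved by less than the replicate spread. For shares of regions without overlap, the Wilson interval of the main share was the limit. Among the 110 are values that leaving out a library could not or could hardly change, namely directions and shares without overlap. For direction, regions across the gene start alone gave -25.0 points for proestrus and males, -12.9 for proestrus and diestrus, and -20.4 for diestrus and males, with at most 7 regions each, and the call was lost in all 3. In proestrus versus diestrus the call was also lost with a limit of 5 kb (-1.48 points) or 1 kb (-5.72), with 1 region per gene (-1.85), against regions up to 100 kb (-1.62), and with at least 20 reads (-5.96). In diestrus versus males it was lost with a limit of 1 kb (-13.7), with chromosome X added (-9.07), and against regions up to 100 kb (-3.20). The cause was not tested. For proestrus and males the call held under the other alternatives, but the difference moved by over 1.5 times, to -27.7 with a limit of 1 kb, to -16.3 with at least 20 reads (which removes higher regions only), to -5.78 with chromosome X added, and to -6.64 against regions up to 100 kb. Leaving out any library left the differences at -10.7, -2.21, and -12.5 points, which is no sign of stability, since a direction cannot turn where libraries do not overlap, as in all but 5 autosomal regions of proestrus versus diestrus and 1 of diestrus versus males. Adding 0.5 normalized reads to both means moved the median log2 ratio to 2.38 and -3.83 for proestrus and males (higher and lower regions), 2.41 and -3.11 for proestrus and diestrus, and 2.12 and -2.40 for diestrus and males. At least 20 reads gave 2.62 for higher regions of proestrus versus diestrus, and a limit of 1 kb gave -3.30 for lower regions of diestrus versus males and 96.4% of regions without overlap in proestrus versus diestrus. Without 1 library, the medians ranged from 2.56 to 2.83 and -2.22 to -0.61 for proestrus and males, from 2.76 to 3.06 and -2.33 to -0.80 for proestrus and diestrus, and from 2.14 to 2.69 and -3.08 to -2.84 for diestrus and males, and regions without overlap in proestrus versus diestrus from 99.6% to 100%. Both values nearest to 0 came without the deeper proestrus library, where the bound for empty groups rises. Leaving out regions by background was chosen after seeing the data. No paired analysis was possible because the listed libraries carry no names or replicate numbers.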
